A study of Canis lupus familiaris with 6 samples.

Results

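The SELENO-named selenoproteins were read in whole blood RNA of dogs fed with or without a selenium supplement. They were the genes whose symbol in the deposited table is SELENO followed by 1 letter, and 9 of the 31512 genes in the table met this rule: SELENOW, SELENOP, SELENOO, SELENOS, SELENOF, SELENOT, SELENOK, SELENOM and SELENOI. The blood came from Beagle dogs, 1.5 years old, on day 30 of feeding. There were 3 libraries in the control group and 3 in the CPP-Se group. They are labelled as biological replicates, and each was read as 1 dog. The study fed more dogs than there are libraries, and how the libraries were drawn from them is not stated. All dogs ate the same maintenance food. A 30 g snack was added, plain for the control group and with 0.03% CPP-Se for the other. CPP-Se is selenium bound to casein phosphopeptides, fragments of milk protein.

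Selenoproteins carry selenocysteine, an amino acid that is inserted at a UGA codon, which otherwise stops translation. The insertion needs a hairpin in the 3′ end of the mRNA, a protein that binds it (SECISBP2), a dedicated elongation factor (EEFSEC) and a tRNA whose serine is converted to selenocysteine. When selenium is short, the mRNAs of some selenoproteins are lost more readily than others, and for this reason selenoprotein mRNAs in blood are used as a reading of selenium status. The SELENO-named proteins do different work. SELENOP is secreted, mainly by the liver, and carries selenium through the plasma. SELENOW is a small cytosolic redox protein, and SELENOO is a mitochondrial enzyme that attaches AMP to other proteins. SELENOS, SELENOK, SELENOF, SELENOT and SELENOM are proteins of the endoplasmic reticulum (ER), and SELENOI makes the membrane lipid phosphatidylethanolamine. In the table's descriptions, SELENOW and SELENOT share the Rdx domain, and SELENOF and SELENOM share the Sep15/SelM redox domain.

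Expression is given as FPKM, the fragments on a gene scaled by the gene's length and by the library, which can be compared between genes. The whole reads behind each FPKM were recovered from the step size of each library, and genes held 6598173 to 8067034 of them per dog. CPP-Se dog 2 stood apart: of its reads on genes, 8 hemoglobin genes held 36.6%, where the other dogs had 48.7% to 55.9%, and the library size behind its FPKM was 1.65 times these reads, against 0.882 to 1.05 times. Markers of red cells, neutrophils, platelets and lymphocytes were present in each library, as whole blood would give. Differences between the groups were read from a fit of log2(FPKM + 1) over 9847 genes, those whose mean reached 1 FPKM. A gene was called changed at an adjusted p under 0.05 with a fold change of at least 1.5. The symbols of the 9 genes were chosen without regard to their values, but with earlier results of these libraries known.

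SELENOW was by far the most abundant of the 9 genes. Its FPKM was 222.7, 210.1 and 165.8 in control dogs 1, 2 and 3, and 355.8, 165.8 and 195.7 in CPP-Se dogs 1, 2 and 3. The mean over the 6 dogs was 219.3 ± 70.7 FPKM (SD), 10.6 times that of SELENOP, the next gene, and SELENOW ranked first in each of the 6 dogs. It held between 61.2% and 83.6% of the summed FPKM of the 9 genes. The gene (ENSCAFG00000004074, chromosome 1, 108285443 to 108289568) had 921 to 1752 reads per dog, more than any other member.

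Between SELENOW and the lowest members lay 6 genes of intermediate level. Their means over the 6 dogs were 20.7 ± 17.4 FPKM for SELENOP, 16.7 ± 8.33 for SELENOO, 15.8 ± 4.03 for SELENOS, 8.56 ± 2.09 for SELENOF, 6.77 ± 1.16 for SELENOT and 5.26 ± 1.76 for SELENOK. The order among the first 3 of these changed from dog to dog, in part along the groups. SELENOP was above SELENOO in 4 of 6 dogs, each control dog and CPP-Se dog 2. SELENOO was above SELENOS in 3 of 6 dogs, each CPP-Se dog, and below it in each control dog. The mean log2 ratios of these neighbours, -0.07 ± 1.82 and -0.01 ± 0.92 (SD over the 6 dogs), pool these orders. SELENOS was above SELENOF in 5 of 6 dogs, with a log2 ratio of 0.87 ± 0.65. SELENOF was above SELENOT in 6 of 6 dogs, but by a log2 ratio of only 0.32 ± 0.31, and SELENOT was above SELENOK in 5 of 6 dogs.

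SELENOM and SELENOI were near the limit of detection. In SELENOM the control dogs had 2, 0 and 4 reads, the CPP-Se dogs 3, 9 and 4, and the floor was taken as 3 reads. The 0 in control dog 2 allows a level of up to 0.692 FPKM, by counting error alone. In SELENOI the control dogs had 15, 10 and 14 reads and the CPP-Se dogs 5, 18 and 9. Scaled to FPKM these were 0.357, 0.255 and 0.283 against 0.127, 0.220 and 0.239, so that each CPP-Se dog was below each control dog, at a mean level of 0.247 ± 0.0759 FPKM. Both lay below the filter of 1 FPKM, so 7 of the 9 genes were tested. In a fit without the filter, the log2 fold change was 0.47 for SELENOM (adjusted p = 0.501) and -0.12 for SELENOI (adjusted p = 0.683), by limma with Benjamini-Hochberg adjustment. At such levels the added 1 FPKM draws these values toward 0. The mean FPKM with CPP-Se was 2.27 times that of the control group for SELENOM and 0.654 times for SELENOI.

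**Figure D1:**
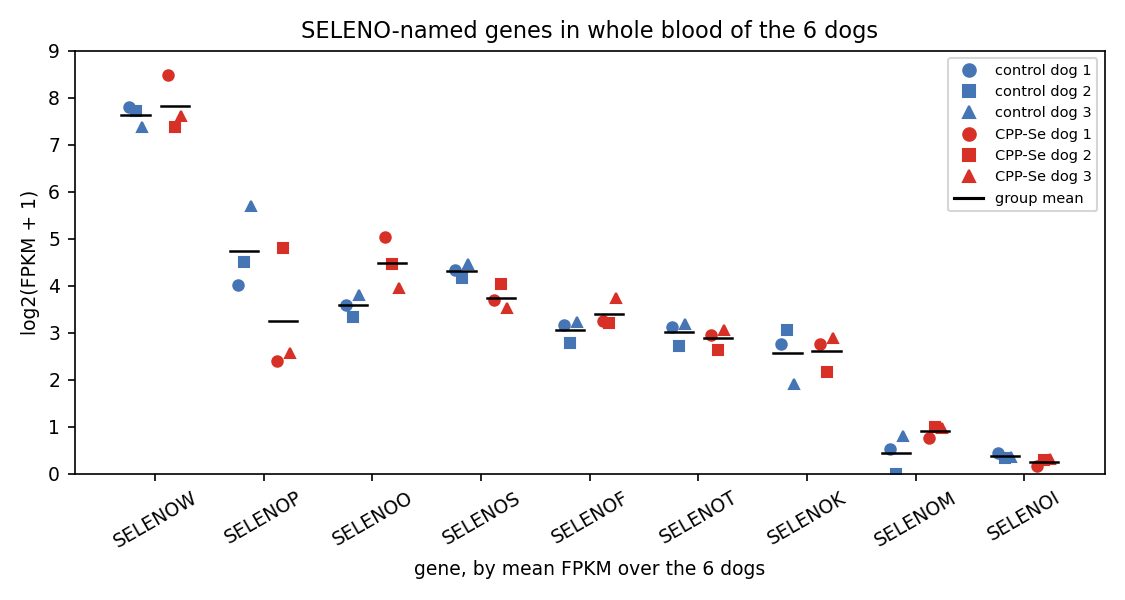
log2(FPKM + 1) of the 9 SELENO-named genes (y axis) in each dog, with genes in order of mean FPKM (x axis), control dogs in blue, CPP-Se dogs in red and a bar at each group mean. SELENOW lies above every other gene in each dog, SELENOP is the most scattered, and SELENOM and SELENOI lie near 0.

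None of the 7 members tested passed the thresholds between the CPP-Se and control groups (limma, lowest adjusted p = 0.213). Over all genes tested the share called was 0.0305%. Below 0.05 before adjustment were 2 of the 7, beside 16.0% of all genes: SELENOO, higher in the CPP-Se group (6.87% of all genes in that direction), and SELENOS, lower (9.10%). The same 2 genes were those whose groups did not overlap, beside 23.0% of all genes, 10.4% higher and 12.6% lower. With 7 genes tested, these counts are not a result about the family. Of the 7, 4 had a positive and 3 a negative fitted log2 fold change. Their median was 0.03, the value of SELENOK, beside -0.0043 for all genes tested. The mean FPKM of SELENOK was itself slightly lower with CPP-Se. With 1 dog left out, the median ranged from -0.14 to 0.25. In bulk blood, fewer cells of a type and less RNA per cell cannot be told apart.

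SELENOO had the lowest p-value of the 7 genes tested that carry a SELENO symbol. Its FPKM was 11.02, 9.12 and 13.1 in control dogs 1, 2 and 3, and 31.6, 20.9 and 14.5 in CPP-Se dogs 1, 2 and 3. Each CPP-Se dog was above each control dog, but the gap between CPP-Se dog 3 and control dog 3 was small, and CPP-Se dog 1 was the highest. The means were 11.1 ± 1.97 FPKM without and 22.3 ± 8.63 FPKM with CPP-Se (SD, n = 3 in each group, as in all group means that follow). The fitted difference was 1.86-fold, a log2 fold change of 0.90 with a standard error of 0.29 and an unadjusted 95% interval from 0.23 to 1.57 (adjusted p = 0.213, limma). SELENOO therefore did not pass over all genes tested. The difference was 0.62 on the log2 scale without CPP-Se dog 1 and 0.91 without CPP-Se dog 2. As a share of the summed FPKM of the 9 genes, SELENOO held 3.29% to 4.82% in the control dogs and 5.74% to 8.46% in the CPP-Se dogs, again without overlap. The shares of SELENOS and SELENOI, whose FPKM did not overlap either, did overlap.

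The gene model of SELENOO (ENSCAFG00000000692, chromosome 10, 16968287 to 17033250) spans 64964 bases for 2354 bases of counted length, and 5 genes on the other strand overlap its span. Whole spans were compared, not exons. The library kit and the counting are not stated to keep strand, so reads from any exons shared with these genes could not be assigned by strand. Of the 5, HDAC10, TUBGCP6 and PLXNB2 were tested, MAPK12 was listed at 0 in each dog, and a row described as MAP kinase 11 (ENSCAFG00000049665) lay below the filter, at 0.381 ± 0.235 FPKM without and 1.13 ± 0.613 FPKM with CPP-Se, also higher without overlap. TUBGCP6, a part of the complex that starts microtubules, had 5.02 ± 0.161 FPKM without and 8.33 ± 2.51 FPKM with CPP-Se, also without overlap (log2 fold change 0.59, standard error 0.24, adjusted p = 0.281 from limma). HDAC10, a histone deacetylase family enzyme, had 8.82 ± 0.454 FPKM and 12.99 ± 7.40 FPKM, with CPP-Se dog 1 at 21.4 and the other CPP-Se dogs at 10.3 and 7.32. The dog highest in SELENOO was thus highest in HDAC10 and TUBGCP6 too. PLXNB2, a semaphorin receptor at the far end of the span, was highest in control dog 2 and overlapped between the groups. Relative to TUBGCP6 in the same dog, the log2 ratio of SELENOO was 1.13 ± 0.212 in the control group and 1.40 ± 0.202 in the CPP-Se group, and the groups overlapped. Relative to HDAC10 it was 0.31 ± 0.32 and 0.86 ± 0.26, and the groups overlapped as well. Relative to PLXNB2 it was 1.62 ± 0.90 and 2.74 ± 0.18, and each CPP-Se dog was above each control dog. No ratio is given to the low row ENSCAFG00000049665, which had 2 reads in control dog 1, under the floor of 3. The part of the shared region in the SELENOO difference was not tested.

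**Figure D2:**
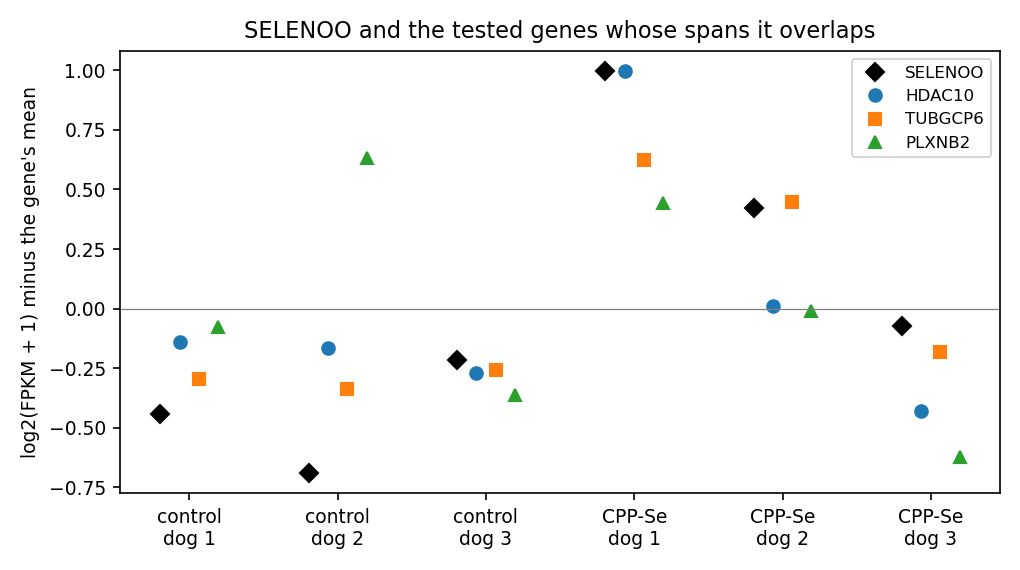
log2(FPKM + 1) minus the gene's mean over the 6 dogs (y axis) for SELENOO and the 3 tested genes that overlap its span, in each dog (x axis). SELENOO, HDAC10 and TUBGCP6 are highest in CPP-Se dog 1, while PLXNB2 is highest in control dog 2.

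Among the ER members, SELENOS was the one with lower values in each CPP-Se dog. SELENOS is a membrane protein that binds the ATPase VCP and takes part in drawing misfolded proteins out of the ER. The control dogs had 19.04, 16.8 and 20.9 FPKM, and the CPP-Se dogs 11.9, 15.3 and 10.5 FPKM. The lowest control dog lay just above the highest CPP-Se dog. The means were 18.9 ± 2.04 and 12.6 ± 2.50 FPKM, with a log2 fold change of -0.56, a standard error of 0.20 and an unadjusted 95% interval from -1.02 to -0.11 (adjusted p = 0.249, limma). The fold was 1.48 on this scale, under the threshold of 1.5. With a pseudocount of 0.1 the log2 fold change was -0.60, past that threshold, with an adjusted p of 0.256 (limma). Without CPP-Se dog 2, the CPP-Se dog nearest to the control dogs, the log2 fold change was -0.71. SELENOS (ENSCAFG00000010575, chromosome 3, 39796711 to 39805591) had 37 to 118 reads per dog. Both ends of this range were in the CPP-Se group, at 37 and 44 reads in dogs 3 and 1 and 118 in dog 2, against 62 to 97 in the control dogs. CPP-Se dog 2 was thus above the control dogs in reads and below them in FPKM. The library size behind its FPKM was 1.65 times its reads on genes, against 0.882 to 1.05 times in the other dogs. The part of this scaling in the absence of overlap was not tested. With every library scaled to a common sum of FPKM, the log2 fold change was -0.41 (adjusted p = 0.790, limma).

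In the other ER members tested the groups overlapped, and none passed the thresholds. SELENOF, which binds the folding sensor UGGT1 in the ER lumen, was at 7.96, 5.91 and 8.39 FPKM in control dogs 1, 2 and 3, and at 8.57, 8.19 and 12.3 FPKM in CPP-Se dogs 1, 2 and 3. CPP-Se dog 3 was the highest and CPP-Se dog 2 lay below control dog 3. Its log2 fold change was 0.34, with a 95% interval from -0.17 to 0.85 (adjusted p = 0.503, limma). SELENOT, a thioredoxin-like protein of the ER membrane, had the narrowest range of the 9 genes, from 5.22 FPKM in CPP-Se dog 2 to 8.09 FPKM in control dog 3, a ratio of 1.55. Its log2 fold change was -0.12, with an interval from -0.61 to 0.36. SELENOK, a partner of the palmitoyl transferase ZDHHC6 that is needed for calcium flux in immune cells, was at 5.77, 7.33 and 2.76 FPKM in control dogs 1, 2 and 3, and at 5.77, 3.51 and 6.44 FPKM in CPP-Se dogs 1, 2 and 3. The lowest and the highest value were both in control dogs, and the group means were 5.29 ± 2.33 and 5.24 ± 1.54 FPKM. With 18 to 38 reads per dog, its interval ran from -0.74 to 0.81 on the log2 scale, so a change of 1.5-fold in either direction could not be told from none.

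SELENOP was the most variable member. Its FPKM was 15.2, 21.7 and 51.0 in control dogs 1, 2 and 3, and 4.23, 26.9 and 4.95 in CPP-Se dogs 1, 2 and 3. CPP-Se dogs 1 and 3 were below every control dog, whereas CPP-Se dog 2 was above control dogs 1 and 2, so the groups overlapped. The highest dog had 12.04 times the level of the lowest. The means were 29.3 ± 19.1 and 12.03 ± 12.9 FPKM, and the log2 fold change was -1.49 with a standard error of 0.68 and a 95% interval from -3.07 to 0.09 (adjusted p = 0.341, limma). The spread within groups on the log2 scale was 1.13, larger than in 98.1% of the genes tested, where the median was 0.31. CPP-Se dog 2, the library with the smallest share of hemoglobin reads, set much of the result: without it the log2 fold change was -2.26 (adjusted p = 0.138, limma). Without control dog 3 it was -1.01.

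The row of SELENOP (ENSCAFG00000028589, chromosome 4, 66956405 to 66959043) covers a model of 627 bases, with 65, 87 and 257 reads in control dogs 1, 2 and 3, against 17, 225 and 19 in CPP-Se dogs 1, 2 and 3. Among the 9 genes SELENOP ranked 2 or 3 in the control dogs and in CPP-Se dog 2, and 7 in CPP-Se dogs 1 and 3. Of its receptors, LRP8, which takes SELENOP up in brain and testis, was at 1.02 FPKM on average, LRP1 overlapped between the groups, and LRP2 was listed at 0 in each dog.

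**Figure D3:**
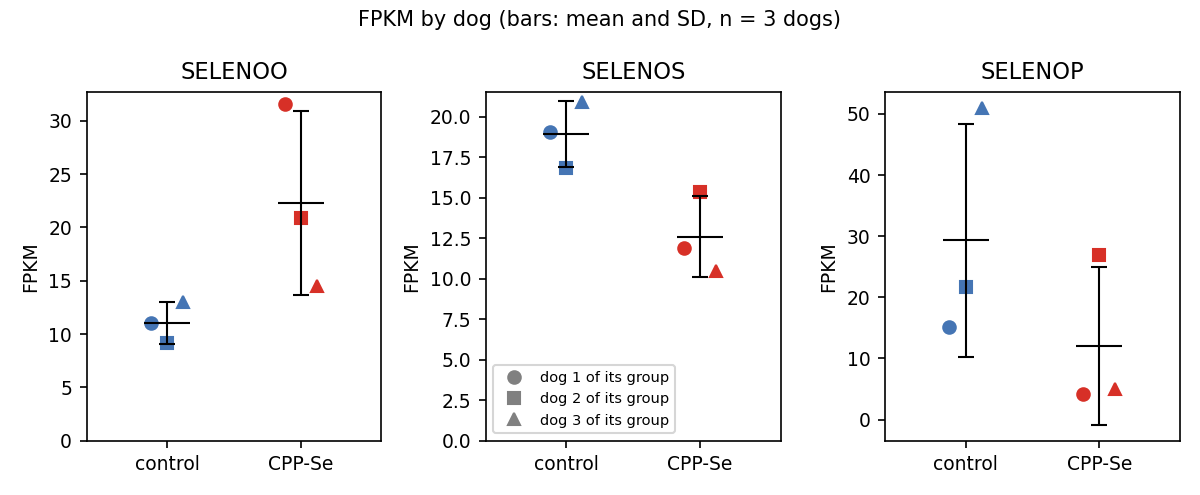
FPKM (y axis, drawn to just below 0 in SELENOP to hold the SD bar) of SELENOO, SELENOS and SELENOP in each dog, with the mean and SD of the 3 dogs of each group (x axis). The groups do not overlap in SELENOO and SELENOS, while CPP-Se dog 2 lies among the control dogs in SELENOP.

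For SELENOW the groups overlapped. Without CPP-Se dog 1, which held its highest value, the sign of the difference changed. The means were 199.5 ± 29.9 FPKM without and 239.1 ± 102.2 FPKM with CPP-Se, with a log2 fold change of 0.19 and a 95% interval from -0.53 to 0.91 (adjusted p = 0.807, limma). Without CPP-Se dog 1 the log2 fold change was -0.14. The summed FPKM of the 9 genes, most of it SELENOW, was 290.1, 276.9 and 271.01 in control dogs 1, 2 and 3, and 425.5, 247.03 and 252.96 in CPP-Se dogs 1, 2 and 3. Without SELENOW the sum was 79.8 ± 22.002 FPKM without and 69.4 ± 12.01 FPKM with CPP-Se, with overlap.

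**Figure D4:**
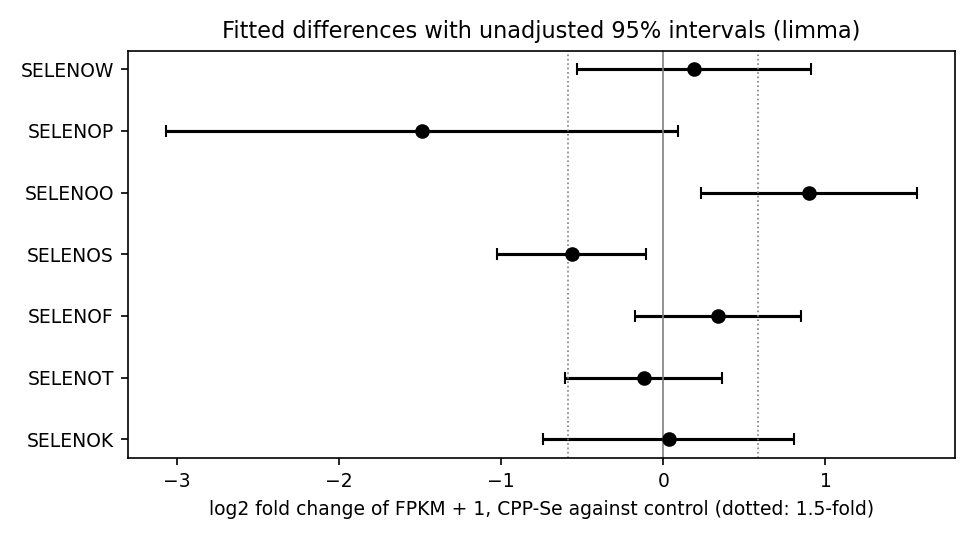
log2 fold change of FPKM + 1 between the CPP-Se and control groups (x axis) for the 7 SELENO-named genes tested (y axis), with unadjusted 95% intervals from limma and dotted lines at 1.5-fold. The intervals of SELENOO and SELENOS do not reach 0, and that of SELENOP is the widest.

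SELENOH, SELENON and SELENOV have no symbol in the table, although RefSeq names 12 dog genes in the SELENO form, and 5 rows without a symbol are described there as selenoproteins. They lie outside the symbol rule and are given beside it. The row described as selenoprotein H, a nuclear redox protein, was found by the assembly alone (chromosome 18, 38478790 to 38480392). The control dogs had 11.3, 8.53 and 12.6 FPKM and the CPP-Se dogs 20.1, 21.7 and 14.97 FPKM, without overlap. The log2 fold change was 0.76 with a standard error of 0.22 (adjusted p = 0.188, limma), so it did not pass. Another pair of rows, 1 beside the other on chromosome 2 (74136512 to 74137968 and 74138154 to 74149919), is described as selenoprotein N, an ER protein of calcium handling in muscle. Their log2 fold changes were 0.07 and -0.15, with overlap in both. The rows described as selenoprotein V and as a second selenoprotein K were listed at 0 in each dog.

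The other selenoproteins and the genes that make and insert selenocysteine did not pass either. Of 13 symbols listed as other selenoproteins, 10 were in the table and 5 were tested. GPX1, the cytosolic glutathione peroxidase, was the most abundant at 3989 FPKM on average, with a log2 fold change of 0.05 and overlap between the groups. Of these 5, 2 had groups without overlap, both lower with CPP-Se, beside 12.6% of all genes. TXNRD1, the cytosolic thioredoxin reductase, was at 20.9 ± 2.88 and 13.6 ± 0.887 FPKM (log2 fold change -0.58, adjusted p = 0.202 from limma). MSRB1, which repairs oxidised methionine, was at 418.2 ± 15.8 and 336.4 ± 68.6 FPKM (log2 fold change -0.33, adjusted p = 0.523 from limma). Of the 10 tested genes of selenocysteine synthesis and insertion, 0 had an unadjusted p under 0.05 in the higher direction and 2 in the lower, beside 6.87% and 9.10% of all genes. These were SECISBP2L (log2 fold change -0.67, adjusted p = 0.181) and SCLY, the lyase that frees selenium from selenocysteine (-0.40, adjusted p = 0.304). The groups did not overlap in 2 genes that were higher and 3 that were lower with CPP-Se, beside 10.4% and 12.6% of all genes. The lower ones were SECISBP2L, SCLY and TRNAU1AP, a partner of the selenocysteine tRNA, at 3.01 ± 0.714 and 2.11 ± 0.449 FPKM. The higher ones were SECISBP2 and EEFSEC, by 0.22 and 0.31 on the log2 scale (adjusted p = 0.578 and 0.451, limma).

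Genes of ER-associated degradation and partners of SELENOS, SELENOK and SELENOF were read as 1 list of 23 genes, most of them general genes of that degradation, of which 21 were tested and 0 were called. Below 0.05 before adjustment were 0 in the higher and 3 in the lower direction, UFD1, EDEM2 and UBXN6, beside 6.87% and 9.10% of all genes. UFD1, which works with VCP, had 30.8 ± 2.53 FPKM without and 16.6 ± 2.23 FPKM with CPP-Se (log2 fold change -0.85, adjusted p = 0.138, limma). The groups did not overlap in 5 genes that were lower (these 3, SEL1L and DERL2) and 1 that was higher (ZDHHC6), beside 12.6% and 10.4% of all genes. The summed level of the list was 403 to 467 FPKM in the control dogs and 334 to 388 FPKM in the CPP-Se dogs, and its median log2 fold change was -0.16. VCP itself, the partner of SELENOS, was at 36.7 ± 2.74 and 38.4 ± 5.53 FPKM. ZDHHC6, the partner of SELENOK, differed by 0.33 on the log2 scale (adjusted p = 0.424, limma), and UGGT1, the partner of SELENOF, was at 4.28 ± 0.674 and 4.08 ± 0.328 FPKM.

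Summed levels of several blood cell marker lists differed between the groups in the same libraries. In each of these lists 0 genes passed the thresholds (limma, lowest adjusted p = 0.138), and no listed marker in the table was at 0 in all dogs. The counts that follow are of genes with an unadjusted p under 0.05, beside 6.87% of all genes in the higher and 9.10% in the lower direction. Of the 8 monocyte genes tested, 7 were so in the lower direction, and the summed level was 848 to 997 FPKM in the control dogs and 403 to 471 FPKM in the CPP-Se dogs. Of the 7 neutrophil genes, 4 were so in the lower direction, with sums of 2240 to 2997 and 1736 to 2227 FPKM. MMP9 of this list had the opposite sign, at 83.6 ± 14.2 and 430.9 ± 365.2 FPKM, with overlap (log2 fold change 1.35, adjusted p = 0.606 from limma). Of the 17 T cell genes, 9 were so in the higher direction and 1, CD4, in the lower. CD4, which dog neutrophils express too, held 73.5% of the summed level of this list, so the sum is not a T cell level. It was 1156 to 1411 FPKM in the control dogs and 1028 to 1145 FPKM in the CPP-Se dogs. The sums of B cell genes (5 of 10 so in the higher direction) were 302 to 416 FPKM in the control dogs and 457 to 493 FPKM in the CPP-Se dogs, and CD79A, which itself overlapped between the groups, held 76.2% of them. Those of NK and cytotoxic genes (5 of 10 likewise) were 45.4 to 82.1 and 97.3 to 148 FPKM. Of the 13 red cell genes, 4 were so in the higher and 1 in the lower direction, and their sums overlapped, as did those of platelet genes (0 and 1 of 7) and plasma cell genes (0 and 0 of 7). The part of these shifts in the values of SELENOO, SELENOS and SELENOP was not tested.

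**Figure D5:**
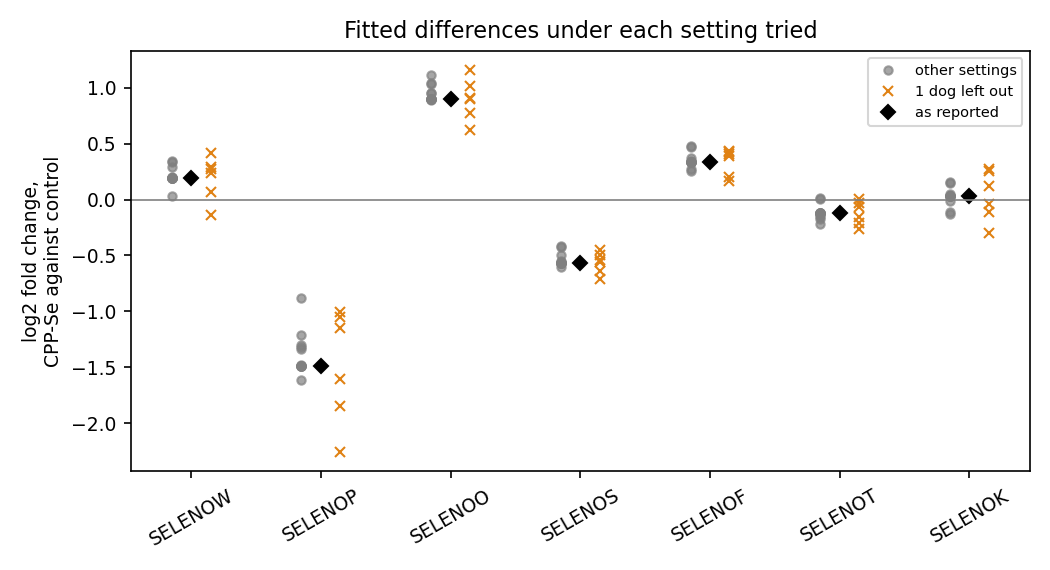
log2 fold change between the CPP-Se and control groups (y axis) of the 7 SELENO-named genes tested (x axis), as reported (diamonds), with 1 dog left out (crosses) and under the other settings tried (grey points). SELENOO, SELENOF, SELENOP and SELENOS stay on 1 side of 0, while SELENOK, SELENOT and SELENOW cross it.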

How the data were processed

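The authors aligned reads with HISAT2 (2.0.5) to the Ensembl release 100 dog genome, added genes assembled by StringTie and deposited FPKM, computed from gene length and the reads on each gene. The submitters' processing notes also name fastp 0.19.7 and featureCounts 1.5.0-p3. The use of strand and the handling of shared reads are not given in the sources used here. From the deposited FPKM, whole reads were recovered (within 0.05 of a read for 100% of the values above 0) and used in the alternatives and as depth. A floor of 3 reads was set. It covers counting error only, as the PCR reads carry no molecular identifiers.

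Groups and replicate numbers came from the labels. log2(FPKM + 1) was fitted without pairing by limma 3.58.1 in R 4.3.3 (lmFit, eBayes with an intensity trend, two-sided, Benjamini-Hochberg adjustment over 9847 genes). The authors' own test was a count model. Here the main test was on the deposited FPKM, so counts of called genes differ in method from theirs. The fit was tested on simulated data with 4-fold changes or none, and the same dispersion in each gene. The changes fitted for the members were smaller, so that test does not measure the power to find them. Tables were made in Python 3.11.15 and figures with matplotlib 3.10.9. The alternatives were another pseudocount, filter, scaling or variance model, array weights, a replicate block, limma-voom on the recovered reads, a looser threshold and each dog left out. The genes named were all SELENO-named genes, genes of the pathway lists with an unadjusted p under 0.05 or a set role, and the genes nearest in pattern. Overlapping genes, rows without a symbol, MSRB1, TRNAU1AP, SEL1L, DERL2, MMP9, VCP, LRP1, LRP2, CD4 and CD79A were named after their values were seen. The members and lists were chosen with earlier results of these data known.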

Additional observations from a re-analysis of the deposited data

How the results depend on the processing

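The 7 members tested gave 0 calls under each of the 20 alternatives, with a lowest adjusted p of 0.0541 (SELENOO, limma-voom with quality weights). SELENOO, SELENOP, SELENOS and SELENOF kept their direction under each of the 19 with a fit, and with a dog left out their log2 fold changes were 0.62 to 1.16, -2.26 to -1.01, -0.71 to -0.45 and 0.17 to 0.44. An unadjusted p under 0.05 was found in 18 of 19 for SELENOO, 11 of 19 for SELENOS and 3 of 19 for SELENOP, whose log2 fold change was -0.88 with array weights. SELENOK turned to -0.13 with array weights, -0.014 with limma-voom and -0.11 with quality weights. SELENOT turned to 0.011 with a common sum of FPKM and 0.0033 with hemoglobin genes left out of it, which moved the median of all genes to 0.13 and 0.12. With a dog left out, SELENOK ranged from -0.30 to 0.27, SELENOT from -0.27 to 0.0014 and SELENOW from -0.14 to 0.41. The cause was not tested. The number of genes called over all genes tested, 3 in the limma fit of log2(FPKM + 1) used here, was 0 with a pseudocount of 0.1 or no filter, 1 with a filter of 5 FPKM or limma-voom, 12 with a common sum, 184 with quality weights and 0 to 14 with a dog left out.

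The labels and the paper describe no pairing by replicate number. The deviations of same-numbered dogs correlated at 0.0165, -0.0900 and -0.0433, and those of differently numbered dogs at -0.078 to 0.112. With so few dogs these values cannot show whether any handling was shared. With the replicate block, 1 gene passed, and 0 members did. Depth limits SELENOK, SELENOM and SELENOI most, and 3 dogs per group limit every comparison.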

Other observations

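The genes with the pattern nearest to each of the 3 most abundant members were sought over the 6 dogs, by the root mean square difference of log2(FPKM + 1) centred on each gene's mean. With 9847 genes and 6 points near neighbours are easily found, and they are given as a description. For SELENOW they were FIS1, PGM2L1 and MVB12A, at differences of 0.057, 0.069 and 0.073, where SELENOW itself deviated by 0.37. FIS1, which takes part in mitochondrial fission, had 43.6, 45.8 and 33.5 FPKM in the control dogs and 70.0, 33.6 and 38.0 FPKM in the CPP-Se dogs, with its highest value in CPP-Se dog 1, as for SELENOW.

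For SELENOO, which deviated by 0.56, the nearest were CDC20, ENY2 and RABEP2, at 0.069, 0.11 and 0.12. CDC20, an activator of the anaphase-promoting complex, had 4.79, 3.84 and 5.22 FPKM in the control dogs and 13.2, 9.56 and 6.68 FPKM in the CPP-Se dogs, in the same order of dogs as SELENOO. None of the 3 overlaps the span of SELENOO. For SELENOP, which deviated by 1.19, no gene was as near: the first were SNORD33, ANKRD66 and TMEM121B at 0.35, 0.40 and 0.56. SNORD33, a small nucleolar RNA with 0 to 4 reads per dog, was listed at 0 in CPP-Se dogs 1 and 3, the dogs lowest in SELENOP. Its reads lie around the floor of 3, so its pattern may be counting error alone.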
